A study of Mus musculus with 6 samples.

Results

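Matricellular proteins are secreted proteins that sit in the extracellular matrix and bind cell receptors, growth factors and matrix fibres without forming a main structural fibre themselves, and fibronectin is the adhesive glycoprotein that cells assemble into a fibrillar scaffold on which other matrix proteins are laid. The 10 genes described here were chosen by name, with earlier results of these data known. All 10 were found among the 17909 identifiers of the 6 libraries. They are Fn1 (fibronectin), the SPARC family genes Sparc, Sparcl1 and Smoc2, the thrombospondins Thbs1, Thbs2 and Thbs3, Tnc (tenascin C), Postn (periostin) and Spp1 (osteopontin). In the liver, the stellate cell, a pericyte that stores retinoids and turns into a myofibroblast on injury, is known as a main source of fibrotic matrix, in which fibronectin, periostin, tenascin C and osteopontin accumulate. Osteopontin is also a product of macrophages and bile duct cells.

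Both groups were primary hepatic stellate cells of male C57BL/6 mice aged 24 weeks, depleted of Cd11b-positive macrophages with magnetic beads, left 4 h to attach and then 14 h more in 10% serum, and labelled day 1. The HAS2_Tg group (replicates 4, 5 and 6) carried a human HAS2 transgene under the alpha smooth muscle actin promoter. The Has2_KO group (replicates 7, 8 and 9) had floxed Has2 deleted with Lrat-Cre, which acts in stellate cells. HAS2 makes hyaluronan, a matrix polysaccharide. Wild-type cells were not analysed here, and a rise in one genotype and a fall in the other cannot be told apart. The labels do not say whether the 3 libraries of a group came from separate mice, and p-values measure the spread between these libraries only.

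Total expected counts were 11961726 to 12423220 per library. Has2 had 835 to 889 counts in HAS2_Tg and 1 in each Has2_KO library. Of 20 stellate cell markers, 15 were called higher in HAS2_Tg and 1 lower (median log2 fold change 0.75), and all 20 were expressed in both groups. Dcn, Vim and Acta2 had the highest means over all 6 libraries, with levels corrected for gene length and depth. Of the tested markers of other cells, 21 of 21 macrophage, 24 of 25 endothelial, 10 of 11 hepatocyte, 4 of 5 neutrophil and 3 of 4 cholangiocyte markers were called lower in HAS2_Tg, mesothelial markers split 1 and 1 of 2, and portal fibroblast and smooth muscle markers were higher in 7 and lower in 3 of 11. Markers near 0 in HAS2_Tg could pass the low-count filter only through Has2_KO. HAS2_Tg replicate 4 stood apart in an unnamed gene identifier that took 1.59% of its counts and at most 0.156% elsewhere.

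Of the 10 genes, 8 were called higher in HAS2_Tg, Spp1 was called lower and Sparcl1 was not called. Over all 13014 genes tested, 40.7% were called, 20.2% higher and 20.5% lower (edgeR's quasi-likelihood test, Benjamini-Hochberg adjusted p under 0.05). The median log2 fold change, HAS2_Tg minus Has2_KO, was 0.66 for the 10 genes and -0.01 for all genes tested. Groups did not overlap in CPM (counts scaled to library size) for 9 of the 10 genes, as for 52.2% of all genes. Postn, Fn1 and Sparc were called at least 2-fold higher, which 3.31% of all genes were, and Spp1 was called at least 2-fold lower, which 7.91% were. In the stricter test against a fold of 1.5, Postn, Fn1, Sparc, Smoc2 and Spp1 passed (5 of 10), against 12.3% of all genes.

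**Figure D1:**
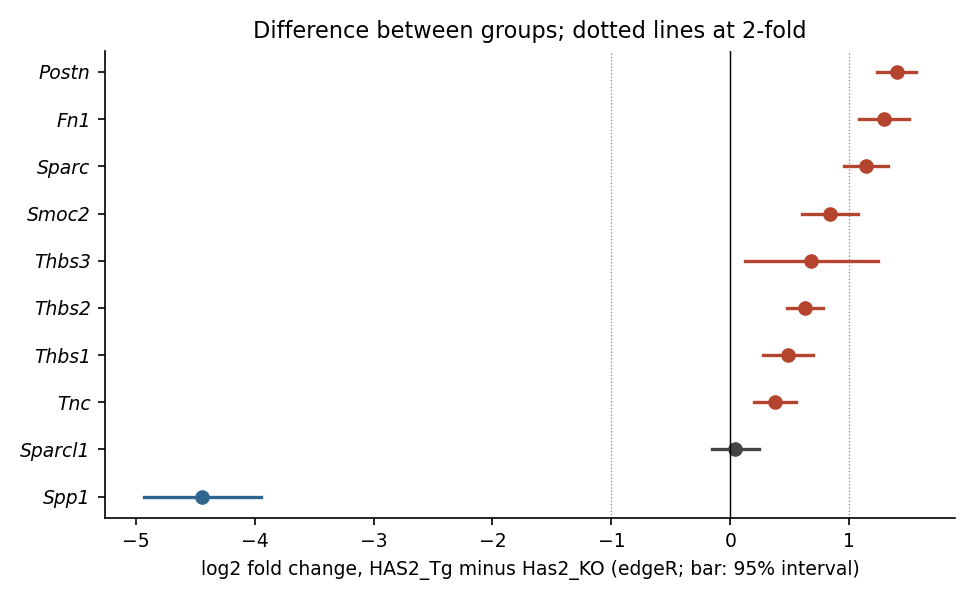
Log2 fold change of each gene (x axis, HAS2_Tg minus Has2_KO, edgeR fit to all genes), with its 95% interval as a bar; genes called higher in HAS2_Tg are red, lower blue, not called grey. Intervals of 8 genes lie above 0, that of Sparcl1 spans 0, and Spp1 lies at -4.44.

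The 10 genes together took 1.27%, 1.33% and 1.31% of all counts in HAS2_Tg replicates 4, 5 and 6 and 0.750%, 0.725% and 0.741% in Has2_KO replicates 7, 8 and 9, so every transgenic library was above every knockout library. Sparc had the largest count share of the 10. It ranked 8th or 9th of all genes by FPKM, the deposited scale that corrects for gene length as well as depth, in HAS2_Tg and 21st to 30th in Has2_KO. By FPKM the order in HAS2_Tg was Sparc, Postn, Thbs1, Fn1, Tnc, Thbs2, Sparcl1, Smoc2, Thbs3 and Spp1. The library ranges of Thbs1 and Fn1, of Fn1 and Tnc, and of Thbs3 and Spp1 overlapped. Within libraries Thbs1 was nonetheless above Fn1 in all 3, while the order of Fn1 and Tnc and that of Thbs3 and Spp1 in replicate 4 was the reverse of that in replicates 5 and 6. In Has2_KO the order was Sparc, Postn, Thbs1, Tnc, Fn1, Sparcl1, Thbs2, Spp1, Smoc2 and Thbs3, with no overlap between neighbours. Mean FPKM in HAS2_Tg ran from 2523 ± 193 (Sparc) to 0.567 ± 0.237 (Spp1), and in Has2_KO from 1294 ± 51.1 (Sparc) to 0.453 ± 0.093 (Thbs3) (SD, n = 3).

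**Figure D2:**
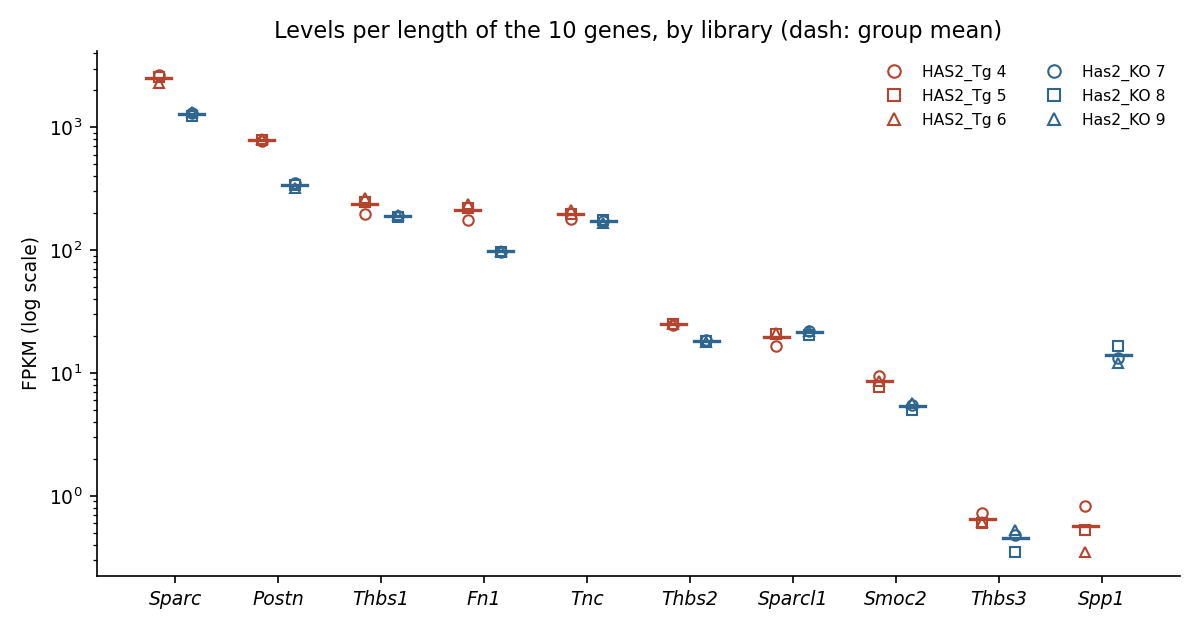
FPKM of the 10 genes (log y axis) in each library, with a dash at the group mean. Spp1 is the only gene in the plot whose knockout libraries (12.1 to 16.6) lie far above the transgenic ones (0.35 to 0.82).

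The upstream sequences of 2 genes are shown because Spp1 was the 1 gene called lower and Postn had the largest log2 fold change of those called higher. Each is the 250 bases before a RefSeq start (GRCm38.p6, another name of the mm10 build), read 5′ to 3′ on the gene's own strand: Spp1 on the plus strand at chr5:104434861-104435110 and Postn on the plus strand at chr3:54360857-54361106, the 1 of its listed starts whose window held a match. Capitals mark exact matches to any of 7 motifs searched on both strands.
Spp1: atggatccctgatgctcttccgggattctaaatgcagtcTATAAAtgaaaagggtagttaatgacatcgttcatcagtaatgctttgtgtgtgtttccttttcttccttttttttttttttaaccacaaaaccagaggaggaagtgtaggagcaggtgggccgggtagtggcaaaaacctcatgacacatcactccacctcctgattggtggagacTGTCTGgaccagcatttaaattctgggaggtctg
Postn: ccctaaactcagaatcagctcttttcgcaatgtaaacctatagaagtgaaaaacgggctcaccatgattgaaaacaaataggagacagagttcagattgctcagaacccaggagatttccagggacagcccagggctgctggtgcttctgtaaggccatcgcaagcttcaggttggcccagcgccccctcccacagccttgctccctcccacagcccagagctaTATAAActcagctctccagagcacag
The TATA box letters TATAAA began at position -211 from the start in the Spp1 window. Its other capitals, at -34, read TGTCTG, which is the SMAD motif CAGACA on the opposite strand. In Postn TATAAA began at -26, and in the window of Sparc, not printed, TGTCTG began at -36. Both motifs also matched in windows of Tnc and Thbs2. In all, TATAAA was in 5 and CAGACA in 4 of the 9 windows that RefSeq gives for 6 of the genes. The windows of Tnc overlap and share the same TATAAA site, so the count of windows is not a count of separate sites. On either strand, TATAAA is held by 12.4% and CAGACA by 17.1% of 32851 promoter windows. The letters TGANTCA (AP-1, in 6.75% of windows) and GGAATG (TEAD, 12.6%) and an NF-kB motif (0.980%) had no match in the 9 windows. TGGGAA (RBPJ, 21.6%) and GGGCGG (GC box, 32.7%) matched in windows of Tnc and Thbs3. The matched letters overlapped no other motif in the windows shown. A second Spp1 window had no match. A match describes letters and not a binding site.

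Fn1 encodes fibronectin, which integrins stretch into fibrils at the cell surface. Its level was 1535, 1863 and 2055 CPM in HAS2_Tg replicates 4, 5 and 6 and 738, 738 and 750.2 CPM in Has2_KO replicates 7, 8 and 9. Every transgenic library was above every knockout library, with replicate 4 the lowest of the transgenic ones. Fn1 was 2.45-fold higher in HAS2_Tg (log2 fold change 1.29, SE 0.10, edgeR adjusted p = 5.66e-08), with a log2 fold change of 1.40 without replicate 4. By FPKM it was 212 ± 32.2 against 97.5 ± 0.721 (SD, n = 3). It ranked 270 to 386 among all genes in HAS2_Tg and 737 to 758 in Has2_KO. Its place in GRCm38 is chromosome 1, 71585473 to 71653280, minus strand.

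Postn encodes periostin, a fasciclin-domain protein that binds integrins and promotes collagen crosslinking. Libraries held 2656, 2578 and 2708 CPM in HAS2_Tg and 1045, 1005 and 964 CPM in Has2_KO. Every transgenic library was above every knockout library, and libraries within a group differed by far less than the groups did. Its log2 fold change was 1.40 (SE 0.08, 95% interval 1.23 to 1.56, edgeR adjusted p = 1.52e-09), or 2.63-fold. By FPKM it was 788 ± 12.7 against 337 ± 14.2 (SD, n = 3). It spans 54359267 to 54391041 of chromosome 3 (GRCm38, plus strand).

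Tnc encodes tenascin C, a hexameric glycoprotein known for its appearance in injured tissue, where it is also a ligand of Tlr4. Its level was 1383, 1487 and 1637 CPM in HAS2_Tg and 1174, 1179 and 1125 CPM in Has2_KO. The groups did not overlap, but the lowest transgenic library was close to the knockout libraries. Tnc had a log2 fold change of 0.37 (SE 0.08, 95% interval 0.20 to 0.55, edgeR adjusted p = 0.00191). The call ended when libraries were scaled by total counts (log2 fold change 0.20, edgeR adjusted p = 0.053), where the median of all genes tested was -0.18. By FPKM Tnc was 197 ± 17.5 against 171 ± 4.71 (SD, n = 3). Its locus is 63959785 to 64047015 of chromosome 4 (GRCm38, minus strand).

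Sparc encodes the collagen-binding glycoprotein osteonectin. Its level was 6661, 6181 and 5674 CPM in HAS2_Tg and 2841, 2677 and 2891 CPM in Has2_KO. Here replicate 4 was the highest transgenic library, the reverse of its place for Fn1. The log2 fold change was 1.14 (SE 0.09, 95% interval 0.96 to 1.32, edgeR adjusted p = 4.97e-08), or 2.20-fold. Its share of all counts was 0.618%, 0.593% and 0.531% in HAS2_Tg and 0.302%, 0.284% and 0.306% in Has2_KO, again without overlap. Among the FPKM of the 10 genes its share was 59.4% to 66.0% and 59.1% to 61.4%, the largest of the 10 in both groups. Sparc is on chromosome 11, 55394159 to 55420080 (GRCm38, minus strand).

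Smoc2, a SPARC-related modular calcium-binding protein, was far less abundant. Libraries held 28.8, 22.8 and 26.3 CPM in HAS2_Tg and 14.6, 13.5 and 15.4 CPM in Has2_KO, without overlap. This was a log2 fold change of 0.84 (SE 0.11, 95% interval 0.60 to 1.07, edgeR adjusted p = 2.15e-05), or 1.79-fold, and 0.75 without replicate 4.

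Sparcl1 encodes hevin, the closest relative of SPARC in the set. Its level was 56.7, 67.5 and 71.7 CPM in HAS2_Tg and 65.1, 60.4 and 64.7 CPM in Has2_KO, so the groups overlapped, and replicate 4 alone lay below all knockout libraries. The log2 fold change was 0.04 with a 95% interval of -0.15 to 0.24 (edgeR adjusted p = 0.742), and its sign turned with total-count scaling (-0.13). Within each library the FPKM ratio of Sparc to Sparcl1, which no scaling of libraries touches, was 161, 125 and 108 in HAS2_Tg and 59.6, 60.7 and 61.1 in Has2_KO. The group means of the log2 ratio differed by 1.10, higher in HAS2_Tg, and the groups did not overlap (exact permutation p = 0.1, two-sided, the smallest that 3 against 3 libraries allow; 0.2 adjusted over 4 ratios).

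The thrombospondins are trimers (Thbs1 and Thbs2) or pentamers (Thbs3) that bind cell surface receptors. Thrombospondins 1 and 2 bind Cd36, and thrombospondin 1 activates latent TGF-beta. Thbs1 stood at 1234, 1501 and 1666 CPM in HAS2_Tg and 1051, 1029 and 1065 CPM in Has2_KO (log2 fold change 0.48, SE 0.10, 95% interval 0.27 to 0.69, edgeR adjusted p = 0.00108). Thbs2 stood at 159, 158 and 159.9 CPM in HAS2_Tg and 104, 103 and 101 CPM in Has2_KO (log2 fold change 0.63, SE 0.07, 95% interval 0.48 to 0.78, edgeR adjusted p = 3.55e-06). Neither gene's groups overlapped, and the transgenic libraries were spread for Thbs1, lowest in replicate 4, and nearly equal for Thbs2. Without replicate 4 the log2 fold changes were 0.59 and 0.62. Thbs1 was the more abundant by FPKM, at 235 ± 36.5 against 24.9 ± 0.345 for Thbs2 in HAS2_Tg (SD, n = 3). Thbs1 lies on chromosome 2 (118111876 to 118127133, plus strand), Thbs2 on chromosome 17 (14665500 to 14694262, minus strand) and Thbs3 on chromosome 3 (89215180 to 89226841, plus strand), all in GRCm38.

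Thbs3 was near the limit of detection, with 28, 23 and 24 counts in HAS2_Tg and 19, 14 and 21 in Has2_KO. Its log2 fold change was 0.68 (SE 0.26, 95% interval 0.12 to 1.24), with an edgeR adjusted p of 0.0493. The call ended in 11 of the 12 alternatives that tested the gene, among them each library left out, so the count of higher genes is 7 without any 1 of the 6 libraries. The FPKM ratio of Thbs1 to Thbs2 was 7.93 to 10.6 in HAS2_Tg and 10.2 to 10.7 in Has2_KO, with overlap (exact permutation p = 0.3, two-sided, 0.4 adjusted over 4 ratios). The ratio of Thbs2 to Thbs3 was 34.1 to 42.1 and 33.8 to 52.0, also with overlap (exact permutation p = 0.9, two-sided).

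Spp1 encodes osteopontin, an RGD-containing phosphoprotein that binds alpha v integrins and Cd44. Its libraries held 14, 9 and 6 counts in HAS2_Tg and 232, 292 and 213 in Has2_KO, or 1.26, 0.785 and 0.524 CPM against 17.6, 22.1 and 16.3 CPM. No transgenic library came near the knockout libraries. The log2 fold change was -4.44 (SE 0.23, 95% interval -4.93 to -3.95, edgeR adjusted p = 7.75e-10), a level 21.7-fold higher in Has2_KO, and -4.82 without HAS2_Tg replicate 4. Spp1 met the low-count filter in the Has2_KO libraries only. The FPKM ratio of Fn1 to Spp1 was 215 to 682 in HAS2_Tg and 5.83 to 8.10 in Has2_KO (exact permutation p = 0.1, two-sided; 0.2 adjusted over 4 ratios).

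Of the markers of other cells that make osteopontin, the macrophage sum moved with Spp1, and the cholangiocyte sum did so only without Slc4a2. This direction was not particular to macrophages. The hepatocyte sum (25.7 to 26.3 against 66.2 to 84.5 CPM), the neutrophil sum (30.2 to 34.9 against 49.3 to 52.0 CPM) and the endothelial sum were also lower in every transgenic library. The summed level of the 22 macrophage markers was 17.7 to 20.04 CPM in HAS2_Tg and 948.5 to 990.2 CPM in Has2_KO. Clec4f and Timd4, named after their values were seen, were at 0 in every transgenic library. In Has2_KO Clec4f had 61 to 80 counts, while Timd4 had 3 to 9 and was too low to be tested. The summed level of the 14 cholangiocyte markers was 111 to 124 CPM and 101 to 108 CPM, nearly all of it Slc4a2. Without Slc4a2 it was 2.51 to 3.23 and 10.3 to 13.7 CPM. Krt7, Krt19 and Epcam, named after their values were seen, had at most 4 counts in any library. In bulk samples fewer cells of a type and less RNA per cell cannot be told apart, and the part of these markers in the Spp1 difference was not tested.

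The summed stellate markers were 23418 to 27047 CPM in HAS2_Tg and 14666 to 15415 CPM in Has2_KO. Those of portal fibroblasts and smooth muscle were 1868 to 2177 and 436 to 469 CPM, so both sums moved with the 8 genes that were higher. Without Myh11, the most abundant portal fibroblast and smooth muscle marker, the latter sums were 743 to 844 and 334 to 353 CPM. Endothelial cells are a known site of Sparcl1, and the summed endothelial markers were 1146 to 1354 CPM in HAS2_Tg and 1970 to 2050 CPM in Has2_KO. Without Plvap, the most abundant of them, the sums were 144 to 157 and 1572 to 1664 CPM, while Sparcl1 itself differed by 0.04 on the log2 scale. The part of these markers in the results was not tested.

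**Figure D3:**
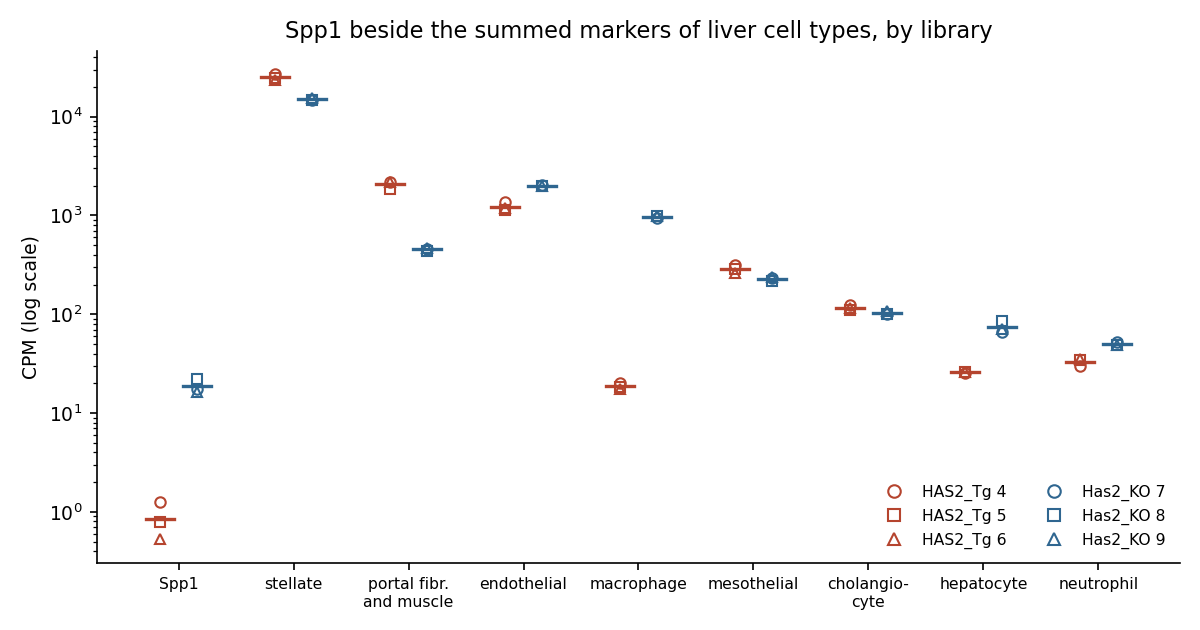
Spp1 and the summed markers of 8 cell types in CPM (log y axis), by library, with a dash at the group mean. Spp1 and the macrophage, endothelial, hepatocyte and neutrophil sums are lower in all 3 transgenic libraries. The stellate, portal fibroblast and smooth muscle, mesothelial and cholangiocyte sums are higher in them.

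Spp1 and Sparcl1 lie in one gene cluster on chromosome 5, with 321.0 kb between them. Sparcl1 occupies 104079108 to 104114088 on the minus strand and Spp1 104435111 to 104441053 on the plus strand (GRCm38). Dmp1, a bone matrix gene between them, had 2 and 1 counts in Has2_KO replicates 8 and 9 and 0 in the other libraries. Pkd2, which begins 12928 bases past Spp1, had a log2 fold change of 0.01 (SE 0.07), and Nudt9, on the far side of Sparcl1, 0.22 (SE 0.10, edgeR adjusted p = 0.0934). Dmp1 was too low to be tested, and of the other 4 genes Spp1 was called and Sparcl1, Pkd2 and Nudt9 were not. Smoc2 and Thbs2 lie 260.7 kb apart on chromosome 17, and both were higher in HAS2_Tg.

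The deposited files also give a length per gene, which in RSEM output is an average over a gene's transcripts weighted by their estimated abundance. It varied among libraries for the 3 genes with several RefSeq transcripts. For Postn it was 3144.39, 3145.44 and 3144.65 bases in HAS2_Tg and 3150.75, 3155.24 and 3150.11 bases in Has2_KO. For Fn1 it was 7971, 7970.88 and 7962.82 bases and 7972.42, 7988.62 and 7984.44 bases. Both genes had longer means in Has2_KO without overlap, by 7.21 bases for Postn and 13.6 bases for Fn1 (exact permutation p = 0.1 for each, two-sided, the smallest possible; 0.15 adjusted over 3 genes). Lengths of 15.1% of the 3010 genes whose length varied did not overlap between groups. The shifts are small beside the range of annotated transcripts, which in GENCODE is 3121 to 3205 bases for Postn and 7410 to 8315 bases for Fn1. For Spp1 the lengths overlapped (exact permutation p = 0.3, two-sided). The files do not say which exons were used.

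**Figure D4:**
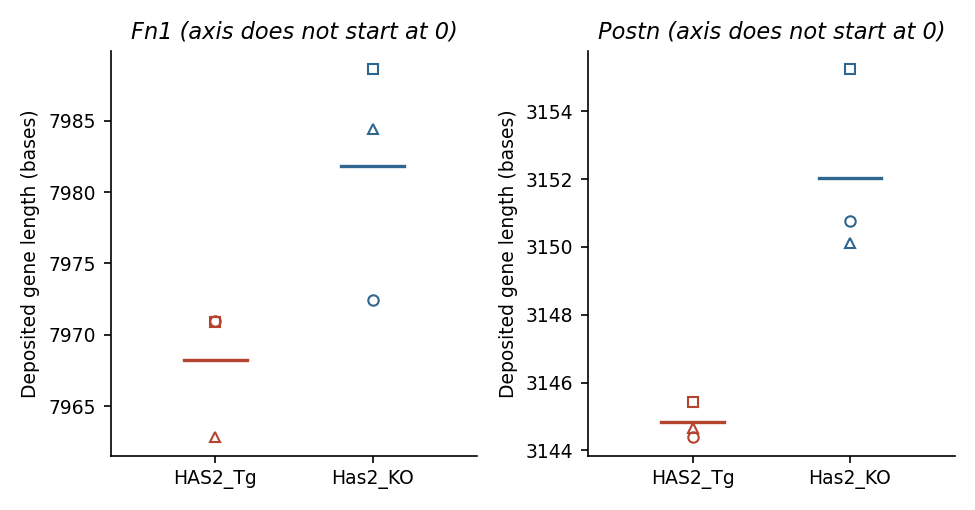
Deposited gene length in bases of Fn1 and Postn in each library (circle, square and triangle: replicates 4, 5 and 6, or 7, 8 and 9), with a dash at the group mean. The knockout libraries lie above the transgenic ones for both genes, by 13.6 and 7.21 bases on average, and neither axis starts at 0.

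Among tested relatives of the 10 genes more were called higher than lower in HAS2_Tg. Of 31 on the list 14 passed the filter, of which 9 were called higher and 3 lower (median log2 fold change 0.51, against -0.01 for all genes tested). These were 64.3% and 21.4% of the tested relatives, against 20.2% higher and 20.5% lower over all genes tested. Ecm1, a secreted matrix glycoprotein also among the stellate markers, was 2331 ± 73.5 against 1066 ± 10.4 CPM (SD, n = 3; log2 fold change 1.13, SE 0.07). Ccn5, a CCN family protein, had 1.09 (SE 0.15) and Fndc1, a fibronectin type III domain protein, 1.25 (SE 0.24), while Ccn3 had -1.24 (SE 0.22), all on the log2 scale. Named after their values were seen, Ccn2 (connective tissue growth factor) had 0.70, Fstl1 (a SPARC family member) 0.70 and Tnxb, a tenascin, -0.27.

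Receptors for these proteins split evenly. Of 27 tested of 30 listed, 11 were called higher and 11 lower (median log2 fold change -0.03). That was 40.7% each way, against 20.2% higher and 20.5% lower over all genes tested. Itga8, whose integrin binds fibronectin, tenascin C and osteopontin and which is also on the portal fibroblast and smooth muscle list, was 123 ± 6.45 against 25.4 ± 2.29 CPM (SD, n = 3; log2 fold change 2.27, SE 0.09), and Ptprz1, a phosphatase that binds tenascins, had 1.65 (SE 0.15). Cd44, the osteopontin and hyaluronan receptor, was 91.5 ± 9.31 against 197 ± 4.44 CPM (SD, n = 3), a log2 fold change of -1.11 (SE 0.08). The thrombospondin receptor Cd36 (-6.64), the SPARC scavenger receptor Stab1 (-5.25) and the endothelial phosphatase Ptprb (-6.10) were lower still, and the last 2 are also on the endothelial marker list, of which 24 of 25 were lower. In HAS2_Tg, Cd36 held 4 to 9 counts, Stab1 28 to 39 and Ptprb 10.4 to 17.0, so these log2 fold changes rest on few transgenic counts. Cd36, with 697 to 797 counts in Has2_KO, met the low-count filter in the Has2_KO libraries only. The subunits of the main fibronectin receptor, named after their values were seen, went opposite ways, with Itgb1 at 0.87 and Itga5 at -0.73 (edgeR, log2 scale, both called).

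Genes of assembly and processing also split, with 7 called higher and 7 lower of 21 tested (25 listed, median log2 fold change -0.06). The shares were 33.3% each way, against 20.2% higher and 20.5% lower over all genes tested. Adamts1, a protease with thrombospondin motifs, was 665 ± 41.7 against 328 ± 4.23 CPM (SD, n = 3), a log2 fold change of 1.02 (SE 0.07). Mmp3, a metalloprotease that cuts osteopontin and fibronectin, was 1.41 ± 0.54 against 152 ± 8.27 CPM (-6.74, SE 0.15). Fam20c, the kinase that phosphorylates osteopontin, had -2.28 (SE 0.12), the plasminogen activator Plau -1.53 (SE 0.08) and the aggrecanase Adamts4 -1.44 (SE 0.21). The macrophage markers (17.7 to 20.04 against 948.5 to 990.2 CPM) moved with these lower genes. So did the summed endothelial, hepatocyte and neutrophil markers, and the part of any of these lists was not tested.

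**Figure D5:**
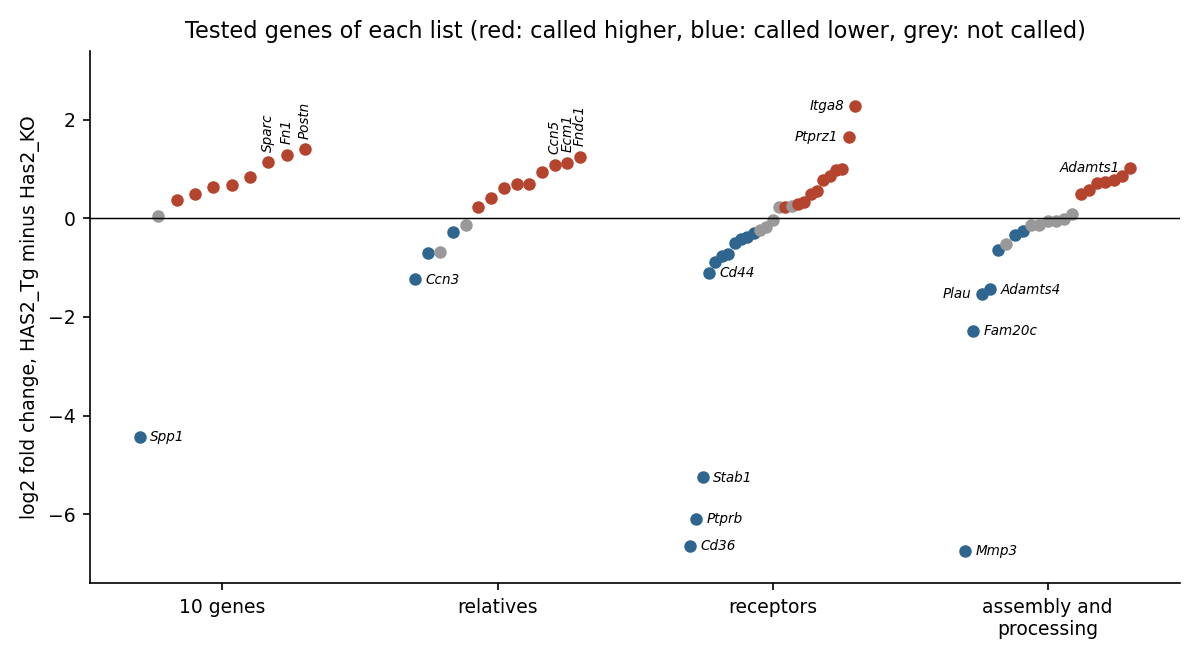
Log2 fold change (y axis, HAS2_Tg minus Has2_KO) of the tested genes of 4 lists, each point a gene sorted within its list; red and blue points were called higher and lower. The 10 genes and their relatives lie mostly above 0, and receptors and assembly genes lie on both sides.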

How the data were processed

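RNA of 6 libraries was sequenced on a BGISEQ-500, per the labels. RSEM and mm10 are the tool and build in the submitters' processing notes, with the version of RSEM not given in the sources used here. The deposited expected counts are estimated reads per gene, and the deposited FPKM values were scaled by length and depth by the authors, per the file headers; genes with no row in a library were set to 0. The deposited length is in bases.

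Identifiers were named from RefSeq tables of GRCm38.p6 (17857 of 17909). Expected counts were rounded, filtered (filterByExpr) and scaled (TMM), and edgeR's robust quasi-likelihood fit was run over all 13014 genes, two-sided. CPM values are TMM-scaled. The SE is |log2 fold change| over the root of F. Lengths and ratios were compared by exact permutation over libraries. The fit was tested on simulated data, in which few genes changed and every gene had the same dispersion (spread beyond sampling noise). Such data do not show how the fit performs where 40.7% of genes were called, as here. Within groups, libraries differed by more than sampling noise, and more so in HAS2_Tg. Chi-square per degree of freedom was 6.24 to 31.5 in HAS2_Tg and 2.31 to 3.17 in Has2_KO. No counting intervals beyond the fit are given.

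The 10 genes and all lists were chosen with earlier results of these data known. Named genes are the 10, Has2 and called list genes with a 2-fold change (at most 5 per direction by adjusted p). The 3 markers with the highest FPKM are named for stellate cells, and of other marker lists at most the most abundant. Markers at or near 0 and others outside this rule were chosen after their values were seen, and such list genes are marked in the text.

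Alternatives were DESeq2 size factors, total counts, no filter, a higher filter (a mean of 5 CPM, and 1 CPM throughout either group), DESeq2's Wald test, limma with a pseudocount of 1 or 0.1 on log2 FPKM for genes reaching FPKM 1 in 3 libraries, limma unfiltered, a test against a fold of 1.5, and each library left out. Software was Python 3.11.15 with pandas 2.3.3, and R 4.3.3 with DESeq2 1.42.0, edgeR 4.0.16 and limma 3.58.1.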

Additional observations from a re-analysis of the deposited data

How the results depend on the processing

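Fn1, Postn, Sparc, Smoc2 and Spp1 kept their direction and call in all 15 alternatives, with log2 fold changes of 1.10 to 1.40, 1.22 to 1.43, 0.96 to 1.20, 0.58 to 0.93 and -4.82 to -3.26. Thbs2 lost its call in 1 alternative (the test against a fold of 1.5), Thbs1 in 2, Tnc in 5 and Thbs3 in 11 of 12. Sparcl1 turned negative with total counts (-0.13), limma on log2(FPKM + 1) with and without a filter (-0.13 each), limma on log2(FPKM + 0.1) (-0.14) and without HAS2_Tg replicate 6 (-0.028), and was at most 0.13 when 1 library was left out. Total counts moved the median of all genes to -0.18 from -0.01; relative to it the 10 genes kept their values (Tnc 0.38, Thbs1 0.49).

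Of the genes called, 49.5% were higher and 50.5% lower in HAS2_Tg (2625 and 2673), against 23.4% and 76.6% with total counts (1477 and 4827). Limma called 1399 and 4198 on log2(FPKM + 1), 1376 and 4138 on log2(FPKM + 0.1), and 1366 and 4596 without a filter. The test against a fold of 1.5 called 552 and 1045. Of the 10 genes, limma without a filter called 5 higher and the test against a fold of 1.5 called 4. That test called 4 higher and 1 lower among relatives, 5 and 6 among receptors and 2 and 4 among assembly and processing genes, and limma without a filter called 13 of the last lower. The log2 ratio of Thbs2 to Thbs3 was lower in HAS2_Tg (-0.07), turned to 0.25 with FPKM + 1, and ran from -0.20 to 0.11 with each library left out.

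No paired analysis was possible because the groups share no replicate numbers. Low counts limit Thbs3 and the level of Spp1 in HAS2_Tg.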
